A study of Mus musculus with 2 samples.

Results

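Serotonin receptors were followed across the cell classes of an adult mouse hippocampus and an E14 mouse brain. The set comprised 8 receptor genes, Htr1a, Htr1b, Htr1f, Htr2a, Htr2c, Htr3a, Htr4 and Htr7, taken by symbol from the 32285 genes that both count matrices list, which hold 14 serotonin receptor genes in all. Slide-tags marks nuclei inside a frozen 20 µm tissue section with spatial barcodes and then profiles them by droplet-based single-nucleus RNA sequencing. The adult library came from a section of the hippocampal region of C57BL/6J mice, for which the methods give males of 56 days of age, perfused and then frozen. The other library came from a section through the brain of a whole frozen C57BL/6J embryo at embryonic day 14, bought from a supplier. No allele, transgene or treatment separated the groups, and each tissue was represented by 1 library. Age, region sampled, supplier, library and Cell Ranger version therefore cannot be told apart in any adult and E14 comparison, and no p-value was computed.

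Serotonin is made by a small number of hindbrain neurons whose axons reach most of the brain, so that what a target cell does depends largely on the receptors it carries. Htr1a, Htr1b and Htr1f encode receptors coupled to Gi/o proteins, which lower cyclic AMP and, through Gβγ, open GIRK potassium channels. Htr2a and Htr2c encode Gq-coupled receptors that act through phospholipase C, Htr4 and Htr7 encode Gs-coupled receptors that raise cyclic AMP, and Htr3a encodes a subunit of the serotonin-gated cation channel. In the hippocampus the 5-HT1A receptor is known for inhibiting pyramidal neurons, and the 5-HT2C receptor is a long-known receptor of the choroid plexus, the epithelium that secretes cerebrospinal fluid.

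After removal of barcodes under 500 UMIs or at 5% or more mitochondrial UMIs, 1609 of 1661 adult nuclei remained with 15346746 UMIs (median 6607 per nucleus), and 9036 of 9037 E14 nuclei with 58923882 UMIs (median 4204). The libraries shared 1 cell barcode. Nuclei were assigned to classes from UMIs of marker genes that include no serotonin receptor. A level is given as the class's UMIs of a gene per 1000000 UMIs of that class (CPM), with an exact 95% Poisson interval, and a share as the percentage of nuclei with at least 1 UMI. All intervals cover counting error only, and nuclei of 1 library are not replicates. Of the adult nuclei 70.1% received a class, and of the E14 nuclei 33.0%. In the CA1 pyramidal-like (169 nuclei), dentate granule-like (289), inhibitory-like (37) and thalamic-like (84) classes of the adult, and in the inhibitory-like (689), thalamic-like (318) and choroid plexus-like (93) classes at E14, every listed marker was higher inside the class than outside it. Gad2, for example, reached 700.0 CPM in adult inhibitory-like nuclei against 9.51 CPM elsewhere, and the choroid plexus gene Clic6 reached 476 CPM against 2.04 CPM at E14. In the adult cortical excitatory-like nuclei 6 of 8 markers were higher, with Cux2 at 0 against 39.8 CPM elsewhere and Rorb at 13.5 against 143 CPM, and in the E14 endothelial-like nuclei 7 of 8, with Slco1a4 at 2.44 against 11.7 CPM. A single adult nucleus passed the choroid plexus rule while Folr1 and Clic6, which define that epithelium, had 0 UMIs in the whole library, so no adult choroid plexus class was described. In the 32 E14 nuclei selected by the serotonergic list 6 of 8 markers were higher than elsewhere, with Tph2 at 16.7 against 1.06 CPM and Slc6a4 at 16.7 against 0.596 CPM on 4 UMIs each, while Slc22a3 had 0 UMIs and Fev had 0 in the whole library. They are called Lmx1b and Gata3 nuclei after a pair of transcription factor genes of that list, each at 163 CPM. Each of the pair had a UMI in only 46.9% of these nuclei, so the name does not mean that every nucleus held both. Slc18a2 of the same list was at 192 CPM, with a UMI in 81.25% of them.

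Together the 8 genes had 4327 UMIs in the adult (282 CPM) and 15475 at E14 (263 CPM). In the adult, Htr4 made up 2402 of these UMIs, Htr1f 1114, Htr2c 338, Htr7 193, Htr2a 118, Htr1a 79, Htr1b 77 and Htr3a 6. At E14, Htr2c alone made up 11814, followed by Htr4 with 1681, Htr7 with 733, Htr1f with 661, Htr2a with 407, Htr1b with 152, Htr1a with 16 and Htr3a with 11. The similar sums thus covered different receptors.

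Htr2c, which had the most UMIs at E14, spans 235 kb of the X chromosome (chrX:146962513-147197277, GRCm38, plus strand), of which annotated exons cover 3.97%. Since intronic reads were counted, its UMIs can come from anywhere in this transcript. The 250 bases before its annotated start are shown because Htr2c dominates the E14 receptor counts, although the counts are per gene and do not show which start was used, with the 50 bases nearest to the start in capitals (RefSeq, GRCm38.p6, chrX:146962263-146962512, plus strand).
Htr2c promoter: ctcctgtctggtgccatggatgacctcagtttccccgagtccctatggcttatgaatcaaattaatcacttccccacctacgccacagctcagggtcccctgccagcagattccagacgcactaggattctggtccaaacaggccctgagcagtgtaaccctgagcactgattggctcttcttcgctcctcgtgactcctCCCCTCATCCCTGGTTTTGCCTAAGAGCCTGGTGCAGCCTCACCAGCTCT
The GC content of this stretch was 55.6%. TAATCC, the core bound by homeodomain factors of the Otx family, was searched on both strands of the window from 250 bases before to 50 bases after each start, and occurs in 7.06% of 32851 RefSeq promoters. It was found in 0 of the 6 member promoters that could be matched, Htr2c among them, and in 1 of 11 promoters of choroid plexus marker genes (an Otx2 start). TATAAA, searched likewise and held by 13.6% of promoters, was found in 0 of the 6 and in 3 of the 11. The introns of Htr2c also hold 7 annotated microRNA hairpins on the same strand, with 11 mature microRNAs that share no seed. A mature sequence from each of 5 of the hairpins is shown, since these RNAs are cut from the same primary transcript, with the seed (bases 2 to 8) in capitals.
mmu-miR-764-3p: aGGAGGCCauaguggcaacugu
mmu-miR-1912-3p: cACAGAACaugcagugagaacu
mmu-miR-1264-3p: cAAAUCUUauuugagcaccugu
mmu-miR-1298-5p: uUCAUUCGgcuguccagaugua
mmu-miR-448-3p: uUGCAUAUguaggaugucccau
They lie in this order from the start of Htr2c to its end, at chrX:147002324-147002345, chrX:147009493-147009514, chrX:147010655-147010676, chrX:147064918-147064939 and chrX:147158281-147158302. The levels of the microRNAs themselves were not analysed here.

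In the adult, the receptors differed in the neuronal classes that held their highest levels. Htr1f led in pyramidal neurons and Htr4 in granule neurons, Htr1a and Htr1b were found mainly in CA1, Htr2a and Htr3a led in inhibitory neurons, and Htr2c and Htr7 led in the thalamic-like nuclei.

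**Figure D1:**
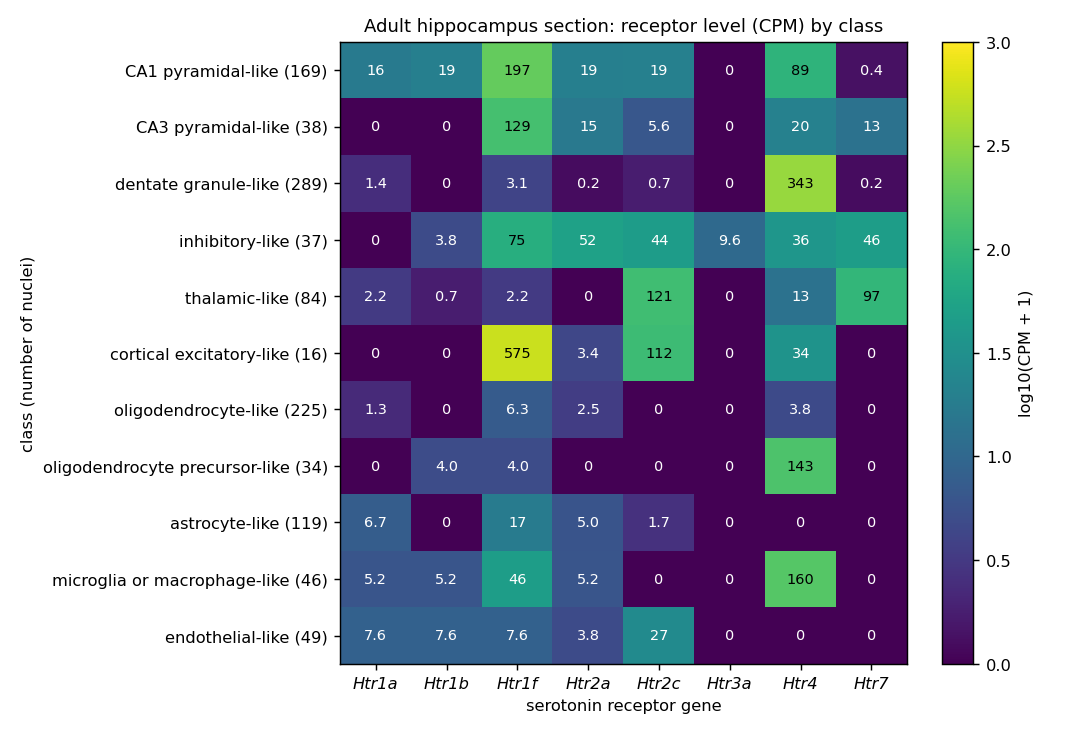
Level of each receptor gene (columns) in 11 classes of the adult hippocampus section (rows, with the number of nuclei). Printed values are CPM and the colour is log10(CPM + 1). Htr4 stood at 343 CPM in dentate granule-like nuclei, Htr1f at 197 CPM in CA1 and Htr2c at 121 CPM in thalamic-like nuclei, and Htr3a was above 0 in the inhibitory-like row alone.

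Among the Gi/o-coupled receptors, Htr1a had 43 UMIs in CA1 (15.7 CPM, 11.4 to 21.2), 6 in granule, 3 in thalamic-like, 4 in astrocyte-like and 1 in oligodendrocyte-like nuclei, and 0 in CA3, inhibitory-like and oligodendrocyte precursor-like nuclei. CA1 thus held 54.4% of the Htr1a UMIs and 17.8% of all UMIs of the library. Its interval nevertheless overlapped that of the next class in the order, endothelial-like nuclei, where 2 UMIs gave 7.59 CPM. Htr1b, the receptor of serotonergic and other nerve terminals, had 51 UMIs in CA1 (18.7 CPM, 13.9 to 24.6), 2 in inhibitory-like nuclei, 1 in thalamic-like nuclei and 0 in CA3, granule, oligodendrocyte-like and astrocyte-like nuclei. Its CA1 interval likewise overlapped that of endothelial-like nuclei, which had 2 UMIs. A non-coding antisense gene, D430036J16Rik, overlaps Htr1b and had 23 UMIs in CA1 (8.42 CPM) and 0 in granule nuclei. The sources used here do not state that strand was used in counting, and without it reads of this pair cannot be told apart.

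Htr1f, the receptor on which the migraine drug lasmiditan acts, had 538 UMIs in CA1 (197 CPM, 181 to 214), 92 in CA3 (129 CPM, 104 to 158), 39 in inhibitory-like nuclei (74.8 CPM, 53.2 to 102), 13 in granule nuclei (3.13 CPM, 1.67 to 5.36) and 3 in thalamic-like nuclei (2.23 CPM). The intervals of CA1, CA3 and inhibitory-like nuclei did not overlap one another, and the CA1 level was 1.53 times that of CA3 (interval 1.22 to 1.93). A still higher level was found in the 16 cortical excitatory-like nuclei, with 170 UMIs in 15 of them (575 CPM, 492 to 669), 2.92 times the level of CA1 (2.44 to 3.48). In CA1 65.1% of nuclei had an Htr1f UMI, with a median of 2 and a highest value of 24, against 0.444% of oligodendrocyte-like nuclei, where all 5 UMIs lay in 1 nucleus. Median depths differed (16523 and 3052 UMIs). After thinning each nucleus to 1000 UMIs the shares were 13.3% and 0%, with 11 and 7 shallower nuclei left out.

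Of the Gq-coupled receptors, Htr2a, the receptor through which classical hallucinogens act, was highest in inhibitory-like nuclei, with 27 UMIs in 9 of 37 nuclei (51.8 CPM, 34.1 to 75.3). CA1 had 51 UMIs (18.7 CPM, 13.9 to 24.6), CA3 11 (15.4 CPM, 7.70 to 27.6), granule nuclei 1 and thalamic-like nuclei 0. The inhibitory level was 2.77 times that of CA1 (1.67 to 4.51), while CA1 and CA3 overlapped. Htr2c had 162 UMIs in thalamic-like nuclei (121 CPM, 103 to 141), 23 in inhibitory-like nuclei (44.1 CPM, 28.0 to 66.2), 52 in CA1 (19.0 CPM, 14.2 to 25.0), 4 in CA3 and 3 in granule nuclei, with none in oligodendrocyte-like nuclei. The thalamic level was 2.74 times the inhibitory level (1.76 to 4.44) and 6.34 times the CA1 level (4.61 to 8.84). An Htr2c UMI was found in 41.7% of thalamic-like and 0% of oligodendrocyte-like nuclei, and thinning gave 9.46% and 0% (10 and 7 nuclei left out). Some entries rested on a single nucleus. All 7 Htr2c UMIs of endothelial-like nuclei lay in 1 nucleus, as did all 33 of the cortical excitatory-like nuclei.

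Htr3a, the only ion channel subunit of the set, had 6 UMIs in the adult library, 5 of them in 4 inhibitory-like nuclei (9.59 CPM, 3.11 to 22.4) and none in any other class. In CA1 the 0 UMIs allow a level of up to 1.35 CPM, the upper end of the exact interval.

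The Gs-coupled receptors led in different classes. Htr4 had 1421 UMIs in granule nuclei (343 CPM, 325 to 361), 243 in CA1 (89.0 CPM, 78.1 to 101), 14 in CA3 (19.6 CPM, 10.7 to 32.9), 19 in inhibitory-like nuclei (36.4 CPM, 21.9 to 56.9) and 17 in thalamic-like nuclei (12.7 CPM), 15 of the last in 1 nucleus. Granule nuclei held 59.2% of the Htr4 UMIs and 27.0% of all UMIs. An Htr4 UMI was present in 260 of the 289 granule nuclei (90.0%, median 3, highest 35) and in a single oligodendrocyte-like nucleus of 225 (0.444%), at median depths of 12029 and 3052 UMIs. Thinning gave 29.7% and 0.459%, with 3 and 7 nuclei left out. High CPM values of Htr4 outside neurons came from few nuclei. In oligodendrocyte precursor-like nuclei 36 UMIs (143 CPM) lay in 3 of 34 nuclei, 26 of them in 1, and in microglia or macrophage-like nuclei 31 UMIs (160 CPM) lay in 5 of 46. Slc17a7, a vesicular glutamate transporter of excitatory neurons, had 29 UMIs (115 CPM) in the former class and 25 (129 CPM) in the latter, and its part in the Htr4 levels was not tested.

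Htr7 had 130 UMIs in thalamic-like nuclei (96.8 CPM, 80.9 to 115), 24 in inhibitory-like nuclei (46.0 CPM, 29.5 to 68.5), 9 in CA3 (12.6 CPM, 5.77 to 23.9), 1 each in CA1 and granule nuclei and 0 in the 5 glial and vascular classes. CA1 and CA3, pyramidal classes of similar depth (medians 16523 and 17443.5 UMIs), thus differed in Htr7, at 34.4 times higher in CA3 on 9 UMIs against 1 (4.77 to 1510), and in Htr4, at 4.54 times higher in CA1 (2.65 to 8.42). In thalamic-like nuclei Htr7 was detected in 42 of 84 nuclei and Htr2c in 35. Both were found in 23 nuclei, Htr2c alone in 12, Htr7 alone in 19 and neither in 30. The nuclei with Htr2c were also deeper, with a median of 22358 UMIs against 6679 in those without, and the part of depth in this joint detection was not tested.

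**Figure D2:**
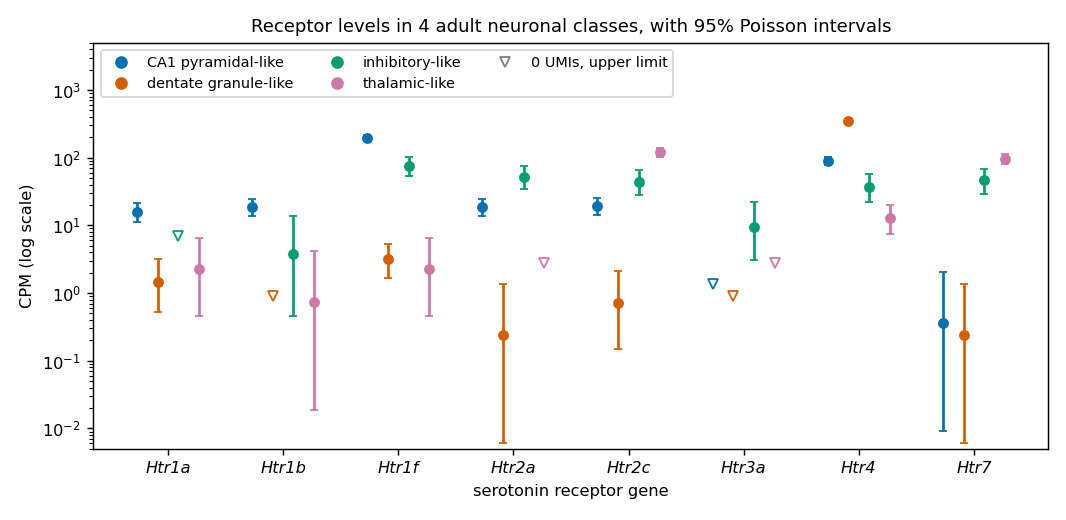
Receptor levels in 4 neuronal classes of the adult hippocampus section. Points are CPM on a log axis, bars are exact 95% Poisson intervals, and open triangles mark the upper limit where 0 UMIs were counted. Htr1a, Htr1b, Htr1f, Htr2a and Htr2c lie higher in CA1 than in granule nuclei and Htr4 lies lower, while Htr2c and Htr7 are highest in thalamic-like nuclei.

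After division by length, the order of the genes depended on which length was used. Per 100 kb of gene body in CA1, the level was 351 CPM for Htr1a, whose gene is a single exon of 4.48 kb, 337 for Htr1b, 109 for Htr1f, 51.6 for Htr4, 27.2 for Htr2a and 8.11 for Htr2c. Per 100 kb of gene body Htr4 reached 199 CPM in granule nuclei. Per kb of exon in CA1, Htr1f was highest with 76.4 CPM and Htr4 followed with 18.1, while Htr1a, Htr1b, Htr2a and Htr2c lay between 2.04 and 3.95. Exons cover 1.42% of the 181 kb of Htr1f and 2.85% of the 172 kb of Htr4.

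CA1 neurons were set against dentate granule neurons as the main excitatory classes of the section. Of the 6 members with at least 10 UMIs over both classes, 5 were at least 2-fold higher in CA1, where 9.43% of 14601 genes were, and 1, Htr4, was at least 2-fold lower, where 13.8% of genes were. Htr1f was 62.9-fold higher in CA1 (36.4 to 119) and Htr1a 10.9-fold (4.61 to 31.3). Htr1b had 51 UMIs against 0, so no finite fold could be given. With 3 counts put in for the granule class it was 25.8-fold higher, and the exact upper limit of the granule level was 0.889 CPM. Htr2c was 26.3-fold higher on 52 against 3 UMIs (8.52 to 132), and Htr2a 77.5-fold on 51 against 1 (13.3 to 3119). Htr4 was 3.85-fold lower in CA1 than in granule nuclei (3.36 to 4.43). Htr7 had 1 UMI in each class and Htr3a 0, so that neither could be compared. The median log2 fold of the 6 members was 4.70, with Htr1b at its value for 3 counts, and that of all tested genes was -0.12.

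The other genes of the pathway split between the same classes gene by gene. Among the 8 Gs partners, genes of the G protein and the adenylyl cyclases that Htr4 and Htr7 use, 1 was higher in CA1 (Adcy8, 164 against 41.9 CPM) and 2 were lower. Gnal, a Gs-type α-subunit, stood at 12.4 CPM in CA1 and 236 CPM in granule nuclei, 19.0-fold lower (13.5 to 27.5), and Adcy1, a calcium-stimulated cyclase, at 154 and 424 CPM. Of 7 Gi/o partners Gnao1 alone was past 2-fold (319 against 139 CPM). The low-affinity monoamine transporter Slc29a4 had 280 UMIs in granule nuclei (67.5 CPM) and 10 in CA1 (3.66 CPM), 18.4-fold lower (9.88 to 38.9). Of the other 6 serotonin receptor genes 4 were tested and Htr5b alone was past 2-fold, higher in CA1 with 21 UMIs against 2. Htr2b ranged from 13.9 CPM in oligodendrocyte-like to 34.5 CPM in inhibitory-like nuclei, with 79 UMIs in CA1 (28.9 CPM) and 109 in granule nuclei (26.3 CPM), and it overlaps Psmd1 on the other strand.

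Inhibitory neurons were then compared with the pooled CA1 and granule nuclei. Of 7 members with enough UMIs, 3 were at least 2-fold higher, where 15.5% of 15035 genes were, and 1 was lower, where 12% of genes were. Htr2a was 6.85-fold higher (4.14 to 11.1), Htr2c 5.52-fold (3.24 to 9.13) and Htr7 158-fold on 24 against 2 UMIs (39.3 to 1382). Htr4 was 6.64-fold lower (4.24 to 11.1). Htr1f did not differ beyond its counting interval, at 0.934 times the excitatory level (0.657 to 1.29), but this level pools CA1 at 197 CPM with granule nuclei at 3.13 CPM, and the inhibitory-like level of 74.8 CPM lay between them. Htr1a had 0 UMIs against 49 (7.12 CPM). The exact upper limit of its inhibitory-like level was 7.07 CPM, so a difference of 2-fold could not be called. Htr3a, with 5 UMIs against 0, fell under the minimum of 10. The median log2 fold of the 7 members was -0.10, against 0.02 over all tested genes. Among the pathway genes, 3 of 7 Gi/o partners, all GIRK channel genes, were lower in inhibitory-like nuclei and 0 were higher. Kcnj6 stood at 203 against 742 CPM, Kcnj3 at 228 against 624 CPM and Kcnj9 at 17.3 against 52.5 CPM. Of 8 Gs partners Gnas was higher, and Adcy1 and Adcy9 were lower. Mpdz, Arrb1 and Adar were higher among 6 tested genes of receptor scaffolds and editing. Of 6 tested Gq partners Gna14 and Plcb4 were higher. Gna14 had 29 of its 34 adult UMIs in 3 inhibitory-like nuclei (55.6 CPM), and Plcb4 stood at 136 against 4.36 CPM.

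The 37 inhibitory-like nuclei were few and unlike one another. By UMIs of lists for interneurons born in the medial or the caudal ganglionic eminence (MGE, CGE), 16 were MGE-like and 11 CGE-like. Htr4 had all 19 of its inhibitory UMIs in 8 MGE-like nuclei (68.2 CPM, 41.1 to 107) and 0 in CGE-like nuclei, and Htr1f had 29 UMIs in MGE-like nuclei (104 CPM) and 1 in CGE-like nuclei (7.03 CPM). Htr2c showed the reverse order with 6 UMIs in MGE-like (21.5 CPM, 7.91 to 46.9) and 17 in CGE-like nuclei (120 CPM, 69.7 to 191), and Htr3a had 4 of its 5 UMIs in CGE-like nuclei. Single nuclei weighed heavily, with 47.4% of the Htr4 UMIs and 30.8% of the Htr1f UMIs of the whole inhibitory-like class in 1 nucleus each.

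When clustering was run with the serotonin receptor genes left out, 2 clusters held CA1 pyramidal-like nuclei, a larger one of 134 nuclei and a smaller one of 48, led by Col11a1 with Nr4a2 and Wnt2 among its leading genes. Median depths were close, at 18188.5 and 20585.5 UMIs. Htr2c was 3.22 times higher in the smaller cluster (2.00 to 5.23), at 42.2 against 13.1 CPM, and Htr4 was 1.71 times higher (1.37 to 2.13), at 135 against 79.1 CPM. Htr1f was slightly lower there, at 175 against 214 CPM (0.819 times, 0.689 to 0.970), while the intervals of the ratio included 1 for Htr1a, Htr1b and Htr2a. Over all 169 CA1 nuclei Htr1a was found in 34 and Htr2c in 25, and both in 1. These contrasts were chosen after their values were seen. Between 0 and 5 of the members were detected in a CA1 nucleus, and the median depth rose with that number from 1319.5 to 31386.5 UMIs. The part of depth in the detection of several receptors in 1 nucleus was not tested.

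At E14 the picture was dominated by Htr2c in the choroid plexus.

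**Figure D3:**
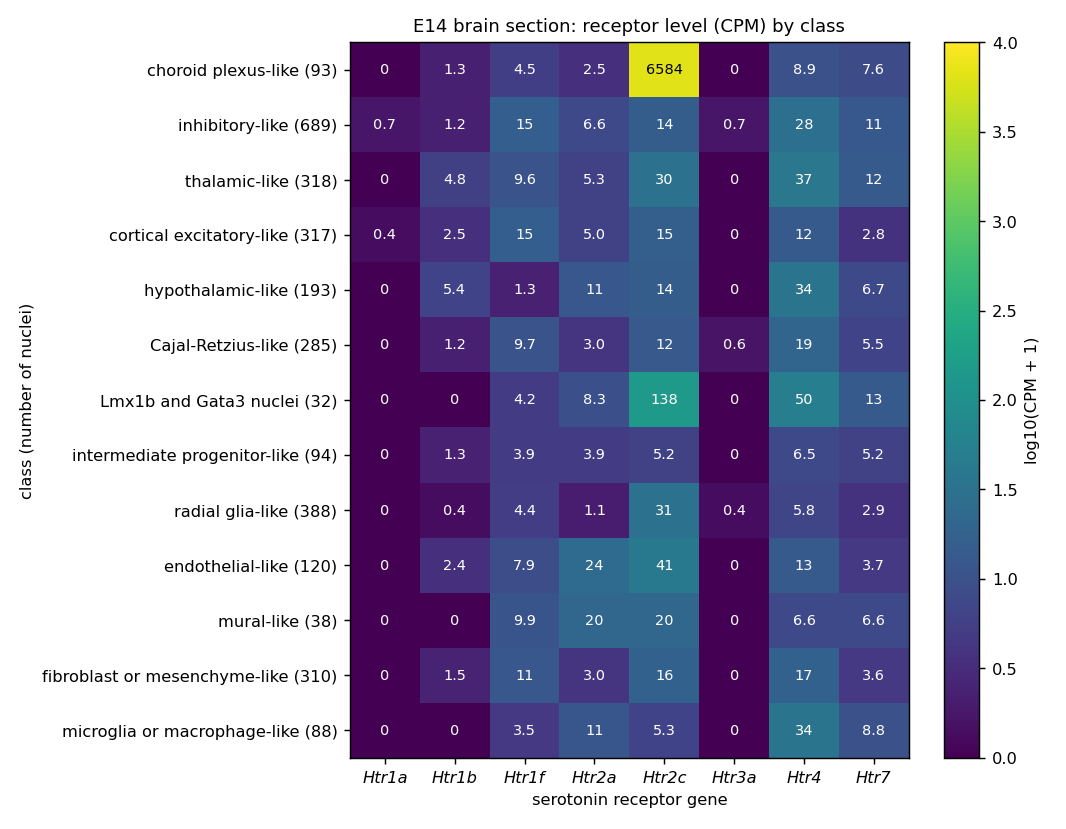
Level of each receptor gene (columns) in 13 classes of the E14 brain section (rows, with the number of nuclei). Printed values are CPM and the colour is log10(CPM + 1). Htr2c in choroid plexus-like nuclei reached 6584 CPM, and every other entry of the map was at 138 CPM or below.

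The 93 choroid plexus-like nuclei held 10356 of the 11814 Htr2c UMIs (87.7%) and 2.67% of all UMIs of the library. Their level was 6584 CPM (6458 to 6712), equal to 2804 CPM per 100 kb of gene body. Per nucleus the lowest value was 0, the median 60 and the highest 1393, which was 13.5% of the class's UMIs. An Htr2c UMI was present in 81 nuclei (87.1%, exact binomial interval 78.5 to 93.2), and in 84.4% after thinning to 1000 UMIs with 3 nuclei left out. The 12 nuclei without one were shallower, with a median of 2252.5 UMIs against 12875, and had a median of 2.5 UMIs of Ttr, the transthyretin gene that choroid plexus expresses at very high level, against 272.

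Against all other E14 nuclei, Htr2c was 259-fold higher in choroid plexus-like nuclei (245 to 274), at 6584 against 25.4 CPM. It was the only member of 8 tested that was at least 2-fold higher, where 15.7% of 21835 genes were. Another 4 members were at least 2-fold lower, where 8.55% of genes were. These were Htr4 at 8.90 against 29.1 CPM (3.27-fold lower, 1.94 to 5.99), Htr2a at 2.54 against 7.03 CPM (2.76-fold, 1.07 to 10.2), Htr1f at 4.45 against 11.4 CPM (2.56-fold, 1.24 to 6.40) and Htr1b, whose 2 UMIs gave an interval that included 1 (0.560 to 17.1). Htr7 stood at 7.63 against 12.6 CPM, and Htr1a and Htr3a had 0 UMIs against 16 and 11. The median log2 fold of the 8 members was -0.88, against 0 over all tested genes.

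**Figure D4:**
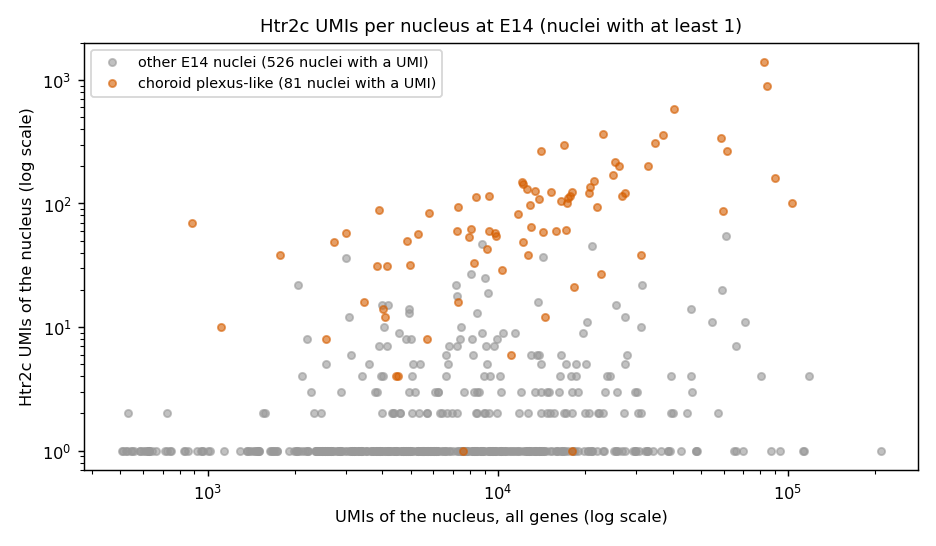
Htr2c UMIs of each E14 nucleus with at least 1 (vertical axis, log scale) against all UMIs of the nucleus (horizontal axis, log scale). Orange points are the 81 choroid plexus-like nuclei, 74 of them with at least 10 Htr2c UMIs and the highest with 1393, and grey points are the 526 other nuclei, the highest of them with 55.

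Outside the choroid plexus a low level of Htr2c was found in every E14 class. The share of nuclei with an Htr2c UMI lay between 3.41% (microglia or macrophage-like) and 6.92% (thalamic-like) in all classes but the 32 Lmx1b and Gata3 nuclei (15.6%). Fibroblast-like nuclei gave 5.48% at a median depth of 3991.5 UMIs, and shares at or below it are not read as expression. Thinned to 1000 UMIs the shares were 2.55% in thalamic-like, 2.12% in fibroblast-like and 0% in microglia-like nuclei, with 4, 27 and 0 nuclei left out. The levels were 30.1 CPM (23.1 to 38.5), 16.3 CPM (11.1 to 23.0) and 5.30 CPM (1.09 to 15.5), and the thalamic-like level without its top nucleus was 18.2 CPM. Ttr, an abundant transcript of the same epithelium, was detected in 75.1 to 84.8% of nuclei of each of these classes. A single nucleus held 82.1% of the 67 Htr2c UMIs of endothelial-like nuclei and 52.3% of the 86 of radial glia-like nuclei. In the Lmx1b and Gata3 nuclei 33 UMIs (138 CPM, 94.8 to 193) lay in 5 nuclei, and 76.5 CPM remained without the top nucleus. How far free RNA contributes to these levels was not tested.

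At E14 Htr4 had 78 UMIs in thalamic-like (37.3 CPM, 29.5 to 46.5), 51 in hypothalamic-like (34.2 CPM, 25.5 to 44.97), 114 in inhibitory-like (27.8 CPM, 23.0 to 33.4), 35 in cortical excitatory-like (12.4 CPM, 8.63 to 17.2) and 16 in radial glia-like nuclei (5.81 CPM, 3.32 to 9.44). The Lmx1b and Gata3 nuclei ranked first on 12 UMIs (50.1 CPM, 25.9 to 87.5). Radial glia, the progenitors of the embryonic brain, ranked last of the 13 classes, and their interval overlapped those of the cortical excitatory-like, endothelial-like, choroid plexus-like, mural-like and intermediate progenitor-like nuclei. Thalamic-like nuclei were above radial glia 6.42 times (3.71 to 11.8), hypothalamic-like 5.88 times (3.30 to 11.1) and inhibitory-like 4.79 times (2.83 to 8.66). Htr4 UMIs were also counted outside the neuronal classes, with 33 in fibroblast-like nuclei (16.8 CPM) and 19 in microglia-like nuclei (33.6 CPM). Stmn2, a neuronal gene, stood at 244 and 380 CPM in these classes and at 580 CPM in thalamic-like nuclei. The part of neuronal RNA in these Htr4 levels was not tested. The share of nuclei with an Htr4 UMI was 14.5% in thalamic-like nuclei, 10.2% in microglia-like, 7.74% in fibroblast-like and 2.58% in radial glia-like nuclei, at median depths of 5174.5, 3824.5, 3991.5 and 4179 UMIs. Thinned to 1000 UMIs these shares were 2.87%, 0%, 0.707% and 0.545%, with 4, 0, 27 and 21 nuclei left out. Htr1f had another order of classes, with 42 UMIs in cortical excitatory-like (14.9 CPM), 60 in inhibitory-like (14.7 CPM), 12 in radial glia-like (4.36 CPM) and 2 in hypothalamic-like nuclei (1.34 CPM). The cortical level was 3.41 times that of radial glia (1.76 to 7.12), but the cortical (10.7 to 20.1) and inhibitory (11.2 to 18.9) intervals overlapped that of fibroblast-like nuclei (11.2 CPM, 7.01 to 16.9), of which 5.81% had an Htr1f UMI.

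Htr2a at E14 was highest in endothelial-like nuclei, with 40 UMIs in 22 of 120 nuclei (24.4 CPM, 17.4 to 33.2), 3.81 times the level of all other nuclei (2.68 to 5.29). That interval overlapped those of mural-like (7.29 to 43.2), microglia-like (3.89 to 23.1), hypothalamic-like (6.64 to 18.3) and Lmx1b and Gata3 nuclei (1.01 to 30.2). Taken as a mean over nuclei, the endothelial-like level lay above its interval. Mural-like nuclei had 6 UMIs (19.9 CPM) and inhibitory-like nuclei 27 (6.59 CPM). The share was 18.3% in endothelial-like and 1.94% in fibroblast-like nuclei, at median depths of 7722 and 3991.5 UMIs, and 3.51% and 0% after thinning (6 and 27 left out). In the adult the same class had 1 Htr2a UMI in 49 nuclei. Htr7 had 26 UMIs in thalamic-like (12.4 CPM) and 47 in inhibitory-like nuclei (11.5 CPM), and its intervals overlapped between these classes. Htr1a and Htr3a had at most 3 UMIs in any named class, and Htr1b at most 10.

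Because 67.0% of E14 nuclei received no class, levels were also read over the 23 clusters of that library. The highest Htr4 level was 96.0 CPM (76.9 to 118) in 128 nuclei led by Penk and Ddc, where Htr1f was also highest with 40.8 CPM (28.7 to 56.3). Next came 233 nuclei led by Klhl14 and Gfra2 (79.2 CPM) and 259 nuclei with Ros1, Sox14 and Nkx2-4 among the leading genes (78.4 CPM). The last cluster also had the highest Htr7 level, 54.4 CPM (45.1 to 65.2) with 118 UMIs in 51 nuclei. Of these clusters, the first was matched to the inhibitory markers and the other 2 received no name.

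Inhibitory-like nuclei were available at both ages from the same marker list. The E14 class held 121 striatal-like nuclei, by a list that was not applied in the adult. Top2a, a cell cycle gene, was found in 19.3% of the E14 nuclei (160 CPM). The part of this composition in the folds was not tested. Of 5 members with enough UMIs, 4 were at least 2-fold higher in the adult, where 17.6% of 14555 genes were, and 0 were lower, where 19.5% of genes were. Htr2a stood at 51.8 CPM in the adult and 6.59 CPM at E14 (7.85-fold, 4.43 to 13.9), Htr1f at 74.8 and 14.7 CPM (5.11-fold, 3.32 to 7.77), Htr7 at 46.0 and 11.5 CPM (4.01-fold, 2.35 to 6.69) and Htr2c at 44.1 and 14.2 CPM (3.11-fold, 1.83 to 5.13). Under a looser marker gate, chosen after seeing the data, the log2 fold of Htr2c was 0.90, below the 2-fold limit, against 1.64 here. At E14 the inhibitory-like intervals of Htr1f (11.2 to 18.9 CPM), Htr2a (4.34 to 9.59 CPM) and Htr2c (10.8 to 18.3 CPM) overlapped those of fibroblast-like nuclei (7.01 to 16.9, 1.12 to 6.64 and 11.1 to 23.0 CPM), so these folds rest on E14 levels not told apart from that class, while Htr7 (8.43 to 15.3 CPM) lay above it (1.43 to 7.33 CPM). By point values Htr7, Htr2a and Htr2c were higher in the adult in both interneuron groups, and Htr1f in MGE-like nuclei alone. Each of these genes had overlapping intervals in 1 of the groups. These were the MGE-like nuclei for Htr7 and Htr2c, and the CGE-like nuclei for Htr2a and Htr1f. Htr7 stood at 28.7 CPM in adult (12.4 to 56.6) and 7.196 CPM in E14 MGE-like nuclei (3.59 to 12.9), with overlapping intervals. In CGE-like nuclei Htr7 stood at 77.4 and 20.3 CPM. Htr2a stood at 68.2 and 5.89 CPM in MGE-like nuclei. In CGE-like nuclei Htr2a stood at 42.2 and 12.9 CPM, with overlapping intervals and all 6 adult UMIs in 1 nucleus. Htr1f stood at 104 CPM in adult and 8.50 CPM in E14 MGE-like nuclei, but at 7.03 (0.178 to 39.2) and 29.5 CPM (16.9 to 47.9) in CGE-like nuclei. Htr2c stood at 120 and 20.3 CPM in CGE-like nuclei, of which the adult had 11, but at 21.5 (7.91 to 46.9) and 17.7 CPM (11.6 to 25.7) in MGE-like nuclei. Htr4, at 36.4 and 27.8 CPM, did not differ beyond its interval (1.31-fold, 0.760 to 2.14), and the adult level without its top nucleus was 20.4 CPM. The pooled Htr4 level hid opposite differences, with MGE-like nuclei at 68.2 CPM in the adult (41.1 to 107) and 5.89 CPM at E14 (2.69 to 11.2), and CGE-like nuclei at 0 in the adult (up to 25.9) and 64.6 CPM at E14 (44.98 to 89.8). The median log2 fold of the 5 members was 2.00, against -0.06 over all tested genes. With the nuclei thinned to 1000 UMIs, the adult and E14 shares were 8.57% and 0.446% for Htr2a, 5.71% and 1.34% for Htr1f, 5.71% and 0.893% for Htr7, 2.86% and 1.64% for Htr2c and 0% and 1.79% for Htr4, with 2 and 17 nuclei left out.

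Thalamic-like nuclei of both ages were set side by side gene by gene, and no share over all genes was computed for them. Htr7 was 7.79-fold higher in the adult (96.8 against 12.4 CPM, 5.08 to 12.4) and Htr2c 4.01-fold (121 against 30.1 CPM, 2.98 to 5.45). Of the 63 E14 Htr2c UMIs 25 lay in 1 nucleus, and the 18.2 CPM left without it is near the 16.3 CPM of fibroblast-like nuclei (11.1 to 23.0). Htr4 was 2.95-fold lower in the adult (12.7 against 37.3 CPM, 1.73 to 5.31), where 15 of its 17 UMIs lay in 1 nucleus. Htr1f, at 3 adult UMIs, was 4.28-fold lower (2.23 against 9.56 CPM, 1.27 to 22.5). The E14 thalamic-like Htr1f level (5.84 to 14.8) overlapped that of fibroblast-like nuclei (11.2 CPM, 7.01 to 16.9), at shares of 6.29% and 5.81%, so this fold rests on an E14 level not told apart from that class. Htr2a had 0 thalamic-like UMIs in the adult and 11 at E14 (5.26 CPM, 2.63 to 9.41). That E14 interval also overlapped the fibroblast-like one (1.12 to 6.64). Thalamic-like nuclei had 0.0299 times the inhibitory Htr1f level in the adult (0.00591 to 0.0940) and 0.653 times at E14 (0.373 to 1.10). The adult nuclei came from the hippocampal region and the E14 nuclei from a section through the brain, so region and age cannot be told apart. The libraries also differed in sex-linked RNA, with Xist at 1.95 CPM in the adult and 1996 CPM at E14, and Ddx3y at 42.4 and 0.0509 CPM. Whether this bears on the X-linked Htr2c was not tested.

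**Figure D5:**
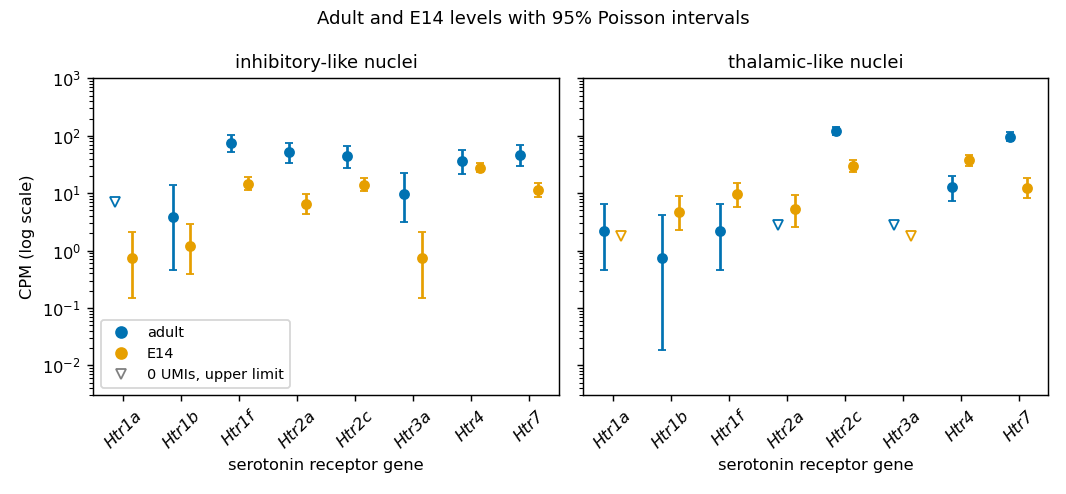
Receptor levels in inhibitory-like (left) and thalamic-like nuclei (right) of the adult and E14 libraries. Points are CPM on a log axis, bars are exact 95% Poisson intervals, and open triangles mark the upper limit where 0 UMIs were counted. Adult points of Htr2c and Htr7 lie above the E14 points in both panels, while Htr4 lies below in the thalamic panel.

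The signalling partners were compared between the inhibitory-like nuclei of both ages in the same way, against the 17.6% of all genes that were higher in the adult and the 19.5% that were lower. Of 8 Gs partners 5 were at least 2-fold higher and 0 lower, among the former Adcy1 (140 against 16.4 CPM, 8.56-fold, 6.06 to 12.1) and Gnal (94.0 against 38.3 CPM). Of 7 Gi/o partners 4 were higher, including Kcnj6 (203 against 29.8 CPM) and Kcnj3 (228 against 43.5 CPM), and Gnai2 was lower (9.59 against 57.4 CPM). Of 6 tested Gq partners Gna14 was higher (55.6 against 2.44 CPM) and Gnaq lower (236 against 639 CPM). Adarb1, which encodes an RNA-editing enzyme known to act on Htr2c transcripts, was higher in the adult (119 against 22.9 CPM, 5.18-fold, 3.70 to 7.22), as was Adar (140 against 56.9 CPM). In the adult section Adarb1 was highest in thalamic-like nuclei with 973 UMIs (725 CPM), the class that also led for Htr2c.

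Several genes of serotonin synthesis and identity had few UMIs. Tph2, which encodes the rate-limiting enzyme of serotonin synthesis in the brain, had 12 UMIs in the adult and 66 at E14. Fev, which specifies serotonergic neurons, had 0 UMIs in both libraries and En1 had 0 in the adult. The serotonin transporter gene Slc6a4 had 1 UMI in the adult and 39 at E14. Of these 4 lay in the Lmx1b and Gata3 nuclei (16.7 CPM, 4.55 to 42.7) and 6 in choroid plexus-like nuclei (3.81 CPM, 6.63-fold above all other nuclei, 2.27 to 16.02). The breakdown enzymes had their highest levels outside neurons. In the adult Maoa had 56 UMIs in endothelial-like nuclei (213 CPM) and Maob 77 in astrocyte-like nuclei (129 CPM), and at E14 Maoa again led in endothelial-like nuclei with 119 UMIs (72.6 CPM).

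The genes most like each receptor were taken as those with the highest Pearson correlation of log2(CPM + 1) over the described classes of a library, given as a description over classes that share 1 library and differ in depth. Over 10 adult classes Htr4 was closest to Rab40b (r = 0.961) and Ppfia2 (0.948), Htr7 to Mctp2 (0.968), and Htr2c to Necab1 (0.945), among 13902 genes. Htr2a was closest to Sema3a (0.934) and then to Htr1f (0.897), the only pair of members in which each was among the 3 nearest genes of the other. Over 13 E14 classes Htr2c was closest to Gm28888 (0.954), Cfap221 (0.940) and the choroid plexus marker Slc4a5 (0.938), among 17596 genes. A single class held 87.7% of the Htr2c UMIs, and the likeness without that class was not tested.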

How the data were processed

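Raw UMI counts per gene and nucleus, as deposited, were used for 2 libraries. Per the file headers, the authors made them with Cell Ranger 6.1.2 (adult) and 7.0.1 (E14), and per their methods reads were aligned to mm10 with intronic reads counted. The methods name CellBender correction for the embryo, but the E14 counts analysed here carry the header of Cell Ranger. Nuclei entered with 500 or more UMIs and less than 5% of them mitochondrial. A nucleus received the class with the highest marker score (at least 0.75, a lead of 0.5 over the next, and 3 marker UMIs from 2 genes). Classes of at least 20 nuclei were described, and 16 adult cortical excitatory-like nuclei are shown beside them. Doublets were kept in the main values. Folds carry exact conditional binomial intervals, called at 2-fold with at least 10 UMIs over both classes. All members are named. Pathway genes were named from those with at least 10 UMIs in a class, at 0 in a library or past 2-fold, but not every such gene is named. Genes given as most alike were chosen from the 3 nearest of a receptor, and not all of these are given. Members and lists were chosen with earlier results of these data known. Clusters came from Seurat 5.3.0 at resolution 0.8, and other values from Python 3.11.15 with scipy 1.17.1. Calculations were checked on simulated counts.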

Additional observations from a re-analysis of the deposited data

How the results depend on the processing

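No paired analysis was possible because each tissue had 1 library, and for the same reason no replicate could be left out. The count of members past 2-fold stayed within 1.5 times its main value in 39 of 40 recomputations over 4 comparisons. The exception was the choroid plexus comparison at a 4-fold threshold, where 1 member (Htr2c) remained of 5. Of 150 folds none changed direction, 146 lay inside the main interval, and the 4 outside it were Htr2c in the choroid plexus (log2 7.70 to 8.23). Of 179 levels 12 left their main interval. Htr2c in the choroid plexus was 4460 CPM in the cluster that held most choroid plexus markers, 7666 CPM with the highest doublet scores removed and 6015 CPM without the nucleus of most UMIs. Htr4 in adult inhibitory-like nuclei was 20.4 CPM without its top nucleus. Htr2a in E14 endothelial-like nuclei was 41.2 CPM as a mean over nuclei. That cluster was matched by its detected markers, although none was among its 10 leading genes and a marker of endothelial cells was. Shares depended on depth, and 28 of 40 left their interval with other thinning. The looser gate and the removal of the top nucleus were chosen after seeing the data. Under the looser gate, Htr2c was no longer past 2-fold between adult and E14 inhibitory-like nuclei, while Htr1b and Htr3a were. Against excitatory nuclei, Htr1b was also lower in inhibitory-like nuclei under 6 settings, and Htr1a when clusters were used. In the choroid plexus comparison Htr1f was no longer called lower with clusters or with the looser gate. Htr1b was no longer called there with the highest doublet scores removed, and Htr7 was also called lower without the nucleus of most UMIs. At 4-fold Htr4 between CA1 and granule nuclei and Htr2c between the ages were no longer called. At E14 Htr1a and Htr3a had 16 and 11 UMIs in all, and differences between classes were not detectable from so few.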

Other observations

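Nuclei that received no class still held receptor UMIs. In the adult 481 such nuclei held 606 Htr4 UMIs (182 CPM) and 219 Htr1f UMIs (65.9 CPM), and at E14 6053 held 1247 Htr4 UMIs (33.9 CPM), 586 Htr7 UMIs (15.9 CPM) and 1021 Htr2c UMIs (27.7 CPM). Among the adult nuclei a cluster of 204 of low depth (median 855 UMIs, median Malat1 share 0.216%) held 9 Htr1a UMIs (29.5 CPM), against 14.8 CPM in the larger CA1 cluster, a ratio of 2.00 with an interval that included 1 (0.845 to 4.22). Htr1f and Htr4 were lower in it, by 3.11-fold (2.02 to 5.07) and 3.02-fold (1.504 to 7.10). Htr1b stood at 9.82 against 21.7 CPM, a ratio of 0.452 (0.0903 to 1.39).

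Within E14 inhibitory-like nuclei Htr4 was unevenly spread over the ganglionic eminence lists. The 79 CGE-like nuclei stood at 64.6 CPM (44.98 to 89.8), the 121 striatal-like at 34.5 CPM (22.4 to 51.0) and the 279 MGE-like at 5.89 CPM (2.69 to 11.2). In the adult Htr4 was found in MGE-like and not in CGE-like nuclei, on 16 and 11 nuclei. Ddc, which encodes the decarboxylase that makes serotonin and dopamine, was highest in adult endothelial-like nuclei with 32 UMIs (121 CPM), followed by oligodendrocyte-like nuclei with 38 (47.9 CPM). Slc18a2, the vesicular monoamine transporter gene, had 343 UMIs in E14 thalamic-like nuclei (164 CPM) and 54 in adult ones (40.2 CPM).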
